A study of Mus musculus with 64 samples.

Results

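PF-04447943 is a small-molecule inhibitor of phosphodiesterase 9A, the enzyme encoded by Pde9a that breaks down cyclic GMP. The hippocampus and the prefrontal cortex of mice that had received it were compared, 16 arrays of each, which is 32 of the 64 arrays of the series. They were chosen by their labels alone, which give region, drug and genotype. The arrays fell into 4 groups of 8: hippocampus of Tg2576 mice, hippocampus of wild-type littermates, prefrontal cortex of Tg2576 mice and prefrontal cortex of wild-type littermates.

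All animals were 4 months old, on a cross of C57Bl/6 and SJL, and carried an implanted minipump for 28 days. The pump delivered PF-04447943 in the 4 groups compared here and vehicle in the other 32 arrays, which serve below as a second measurement of the same regions. Tg2576 mice carry a transgene for a mutant human amyloid precursor protein, and the promoter that drives it is not given in the sources used here. The series describes 8 mice per group, and each array held total RNA of dissected tissue from one region, named frontal cortex in one place and prefrontal cortex in another.

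The hippocampus is built of granule cells in the dentate gyrus and of pyramidal cells in the CA fields, which form a chain of excitatory synapses. The prefrontal cortex has layered projection neurons that differ in their targets and in the transcription factors that specify them. Both hold inhibitory neurons, and both receive their signals through glutamate and GABA receptors whose subunits differ between neuron classes. Cyclic GMP is made by guanylate cyclases, some of them driven by nitric oxide, acts through protein kinases and ion channels, and is removed by several phosphodiesterases.

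Levels are log2 of the RMA intensity of the probe set with the highest mean for a gene, and a difference is hippocampus minus prefrontal cortex, averaged over both genotypes. One log2 unit is a fold of 2. Differences were tested with limma over 12949 genes with Benjamini-Hochberg adjustment, and errors are standard errors unless stated. The tissue labels were checked first, by the median correlation of each array with those of either region over all genes tested. Of the 16 cortical arrays, 16 correlated more closely with the other cortical arrays than with the hippocampal ones, and 15 of the 16 hippocampal arrays did so with their own region. The median intensity of an array ran from 90.9 to 100.7 and the interquartile range of its log2 values from 3.38 to 3.83.

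The exception was the library labelled hippocampus, Tg2576, PF-04447943, replicate 1. Its median correlation was 0.951 with the other hippocampal arrays and 0.968 with the cortical arrays, and the array nearest to it was one of cortex from Tg2576 mice given PF-04447943. Dsp, which encodes the desmosome protein desmoplakin and marks dentate granule cells, had a level of 4.62 there, against 7.98 to 10.15 in the other 15 hippocampal arrays. Its level of Prox1, the homeodomain factor of dentate granule cells, was 4.76, lower than in every cortical array. Gfap, the astrocyte filament protein that was higher in hippocampus, had its highest level of all hippocampal arrays there, at 12.13, so the library did not resemble cortex in every gene. What the tissue in it was could not be settled from its label and was not tested. Values below use all 32 arrays unless they are said to be without this library. Over the 90 genes named below whose difference passed the threshold of 1 log2 unit and the test, the difference without it was 0.947 to 1.10 times that with it, and 1 of them, Nos1, was no longer past that threshold.

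**Figure D1:**
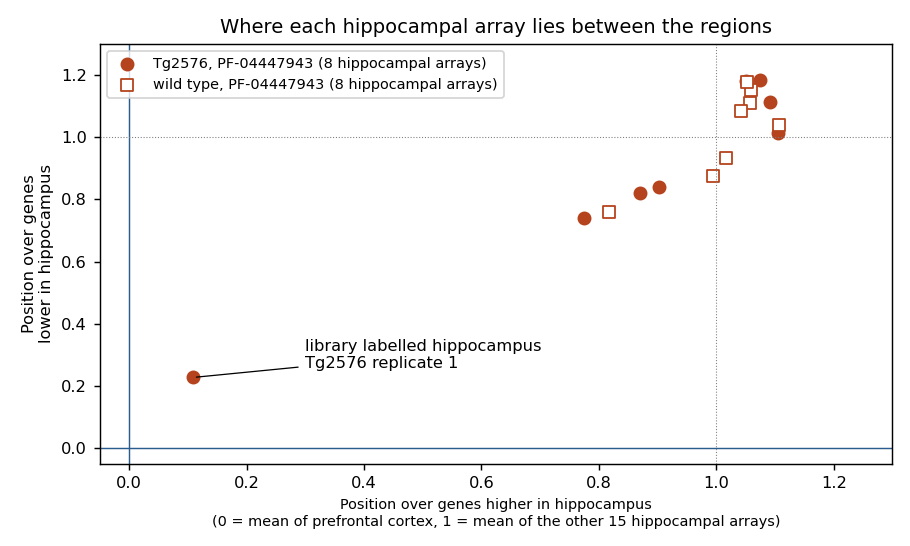
Each point is 1 of the 16 hippocampal arrays under PF-04447943, placed by its median position between the regions over the 184 genes that were higher (horizontal axis) and the 219 that were lower (vertical axis) in hippocampus by at least 1 log2 unit without the library at odds with its label. A position of 0 is the mean of the cortical arrays and 1 the mean of the other 15 hippocampal arrays: the library labelled Tg2576 replicate 1 lies at 0.108 and 0.227, and the other 15 lie between 0.740 and 1.18.

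The 2 regions differed widely. Of 12949 genes, 3377 were higher in hippocampus, 26.1% of those tested, and 3815 were lower, 29.5%, which makes 7192 genes or 55.5% past an adjusted p of 0.05. Without the library at odds with its label 3528 were higher and 3917 lower. In bulk tissue, fewer cells of a type and less RNA per cell cannot be told apart, which holds for every difference below. Most of these differences were small: the median absolute difference over all genes was 0.15. A difference of at least 1 log2 unit was found for 167 genes higher in hippocampus, 1.29% of those tested, and 194 lower, 1.50%. Without the library these were 184 and 219. The levels of the hippocampal and cortical arrays did not overlap at all for 484 genes, 3.74%, and for 1043 genes, 8.05%, without that library.

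Among the genes whose arrays did not overlap, the largest positive differences belonged to Lct, the intestinal disaccharidase lactase, Cabp7, a calmodulin-like calcium-binding protein, C1ql2, a secreted C1q-domain protein of mossy fibre synapses, Fibcd1, a membrane protein that binds acetylated sugars and is a known marker of CA1, and Shisa6, an auxiliary subunit of AMPA receptors. Lct had a level of 6.53 in the lowest, 9.40 in the median and 10.15 in the highest hippocampal array, against 4.43, 5.44 and 6.25 in cortex. Its difference was 3.74 ± 0.25 (adjusted p = 8.07e-14), and 3.91 without the library at odds with its label. C1ql2 ran from 7.69 through a median of 9.21 to 10.58 in hippocampus, against 5.59, 6.05 and 6.56 in cortex. The lowest hippocampal value of both genes came from that library, and the next lowest was 7.97 for Lct and 8.77 for C1ql2. The difference of C1ql2 was 3.35 ± 0.17 (adjusted p = 6.85e-16). Cabp7 differed by 3.57 ± 0.19, Fibcd1 by 3.32 ± 0.19 and Shisa6 by 3.26 ± 0.18, with adjusted p of 1.09e-15, 4.46e-15 and 3.35e-15. The next in order were Kl, which encodes klotho and is in the choroid plexus list below, Tanc1, a postsynaptic scaffold, Nnat, which encodes neuronatin, Cpne7, a copine that binds membranes in the presence of calcium, and Gfap, with differences of 2.92, 2.47, 2.46, 2.45 and 2.38. The value for Cpne7 was 1.63 when all its probe sets were averaged. Such means, here and below, also take in probe sets under log2 5.92, the level below which genes were left out.

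Negative differences are also ranked only among genes whose arrays did not overlap. Over all genes tested the most negative was -3.28. Within that set the largest were those of Krt12, a keratin, Exph5, an effector of the small GTPase Rab27, Cbln2, a cerebellin that organises synapses, Tmem196, a membrane protein, and Dpp10, an auxiliary subunit of Kv4 potassium channels. Krt12 lay at 5.63, 6.63 and 8.65 in the lowest, median and highest hippocampal array, against 9.02, 9.83 and 10.11 in cortex. It differed by -2.94 ± 0.20 (adjusted p = 1.07e-13), and by -3.07 without the library at odds with its label, which held the highest hippocampal value. Exph5 differed by -2.66 ± 0.16, Cbln2 by -2.28 ± 0.14, Tmem196 by -2.28 ± 0.17 and Dpp10 by -2.19 ± 0.19. They were followed by Kcnh5, a voltage-gated potassium channel of the ether-a-go-go family, Scn4b, a sodium channel beta subunit, Lamp5, a lysosome-associated membrane protein of upper-layer and some inhibitory neurons, Cited4, a transcriptional coregulator, and Pcdh11x, a protocadherin, at -2.19, -2.13, -2.12, -1.90 and -1.86. All 20 of these genes were past the threshold, and the rule that named them asked for arrays that did not overlap.

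Promoter windows of 4 genes that differed between regions by at least 1 log2 unit are printed here because each stands for a neuron class: C1ql2 for dentate granule cells, Fibcd1 for CA1 pyramidal cells, Lamp5 for cortical upper-layer neurons and Cux2, a homeodomain factor, for neurons of upper cortical layers. They are RefSeq sequences of GRCm38.p6, 250 bases before to 50 bases after an annotated start, 5′ to 3′ on the strand of the gene, with every match to a searched motif on either strand in capitals. The motifs were the TATA box TATAAA, the CCAAT box, searched as CCAAT, the GC box GGGCGG of Sp factors, the E-boxes CAGATG and, for MYC and USF-type factors, CACGTG, and the cyclic AMP response element TGACGTCA. The window of C1ql2 is chr1:120340332-120340631 on the plus strand, that of Fibcd1 chr2:31845956-31846255 on the minus strand, that of Lamp5 chr2:136052089-136052388 on the plus strand and that of Cux2 chr5:122049802-122050101 on the minus strand. Lamp5 and Cux2 have 2 starts each in the table, of which the one listed first is shown.
C1ql2: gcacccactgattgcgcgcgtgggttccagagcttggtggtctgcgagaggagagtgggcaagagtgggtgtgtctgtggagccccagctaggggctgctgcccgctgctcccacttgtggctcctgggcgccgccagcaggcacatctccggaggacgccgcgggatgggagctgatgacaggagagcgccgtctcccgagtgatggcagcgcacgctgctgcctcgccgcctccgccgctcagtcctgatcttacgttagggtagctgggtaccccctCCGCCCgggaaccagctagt
Fibcd1: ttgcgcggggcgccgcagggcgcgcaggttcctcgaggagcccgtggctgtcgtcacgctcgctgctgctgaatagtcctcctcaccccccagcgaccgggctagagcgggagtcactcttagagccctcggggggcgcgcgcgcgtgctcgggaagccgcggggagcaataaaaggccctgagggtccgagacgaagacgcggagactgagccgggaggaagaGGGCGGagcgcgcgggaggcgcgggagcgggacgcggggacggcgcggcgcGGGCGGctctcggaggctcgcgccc
Lamp5: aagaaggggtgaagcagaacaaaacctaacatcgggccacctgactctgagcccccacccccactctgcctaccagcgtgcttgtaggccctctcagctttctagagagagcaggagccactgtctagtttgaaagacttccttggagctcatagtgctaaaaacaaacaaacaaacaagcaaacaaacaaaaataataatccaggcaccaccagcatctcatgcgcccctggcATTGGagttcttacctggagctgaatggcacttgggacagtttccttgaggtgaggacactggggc
Cux2: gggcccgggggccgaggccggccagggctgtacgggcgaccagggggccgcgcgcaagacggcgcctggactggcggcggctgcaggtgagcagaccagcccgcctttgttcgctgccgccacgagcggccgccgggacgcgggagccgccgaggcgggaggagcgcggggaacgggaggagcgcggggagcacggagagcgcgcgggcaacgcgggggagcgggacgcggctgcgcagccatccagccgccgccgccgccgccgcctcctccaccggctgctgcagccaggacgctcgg
C1ql2 has 1 match, to GGGCGG, Fibcd1 has 2 to the same motif, Lamp5 has 1 to CCAAT, and Cux2 has 0. The windows differ in CpG dinucleotides, with 23 in C1ql2, 46 in Fibcd1, 3 in Lamp5 and 48 in Cux2.

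A promoter was matched for 113 of the 167 genes higher in hippocampus by at least 1 log2 unit, 151 of the 194 lower and 10427 of all genes tested. The median number of CpG dinucleotides was 18 in the windows of higher genes, 17 in those of lower genes and 20 over all. TATAAA was present in 11.5%, 9.93% and 7.24% of these windows in the same order, CCAAT in 34.5%, 36.4% and 38.1%, and GGGCGG in 67.3%, 56.3% and 63.6%. CAGATG, an E-box that basic helix-loop-helix factors can bind, was present in 15.9% of the windows of higher genes, 15.2% of those of lower genes and 11.6% over all. CACGTG was present in 8.85%, 5.30% and 9.99%, and TGACGTCA, the palindromic cyclic AMP response element, in 0, 3.97% and 3.15%. These shares describe letters in a window and were not tested.

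Counts of list members here and below stand against all genes tested, of which 26.1% were higher and 29.5% lower. By at least 1 log2 unit these shares were 1.29% and 1.50%. Genes were kept by their mean over both regions, so some were tested only through the region where they were high. Examples are Dsp, with every cortical level below log2 5.92, and Rspo1, with hippocampal means of 5.73 in Tg2576 and 5.45 in wild-type mice. Counts and medians of lists can lean on such genes, and they leave out members dim in both regions. Most genes of the hippocampal neuron lists were higher in hippocampus. Of 13 tested genes of dentate granule cells, 10 were higher in hippocampus, none was lower, and 6 were higher by at least 1 log2 unit. The median difference was 0.89, against -0.01 over all genes, and 0.95 without the library at odds with its label. Dsp had levels of 4.62, 9.13 and 10.15 in hippocampus (lowest, median, highest), against 3.89, 4.37 and 4.92 in cortex, the largest difference of all genes tested at 4.49 ± 0.31 (adjusted p = 2.68e-13). The ranges met only through the library at odds with its label, without which the difference was 4.76. Prox1 was higher by 1.79 ± 0.20, or 1.95 without that library.

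For pyramidal cells of the CA fields, 12 of 17 tested genes were higher, 1 was lower, and 8 were higher by at least 1 log2 unit, with a median of 0.88 and of 0.80 without the library. Spink8, a Kazal-type protease inhibitor, lay at 6.07, 9.45 and 10.87 in hippocampus, against 5.33, 5.85 and 6.44 in cortex. It was higher by 3.46 ± 0.27 (adjusted p = 2.41e-12). Gpr161, an orphan receptor of the primary cilium, was higher by 2.84 ± 0.21, and by 1.65 over the mean of its probe sets. Necab2, a calcium-binding protein of CA2, was higher by 1.45 ± 0.15, and here the library at odds with its label had the highest level of all, 11.26. The member that was lower was Pcp4, a calmodulin-binding peptide that marks CA2 and also deep cortical layers, with 11.76, 12 and 12.55 in hippocampus, against 12.79, 13.02 and 13.73 in cortex, a difference of -1.09 ± 0.081. Among regulators of pallial patterning, Zbtb20, a zinc finger repressor needed for CA1 identity, was higher by 2.12 ± 0.19 and Nr2f2, the orphan nuclear receptor COUP-TFII, by 1.05 ± 0.10 (0.63 over the mean of its probe sets), while Meis2, a TALE homeodomain factor, was lower, at -1.57 ± 0.17. Of the 10 tested, 5 were higher and 2 lower.

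**Figure D2:**
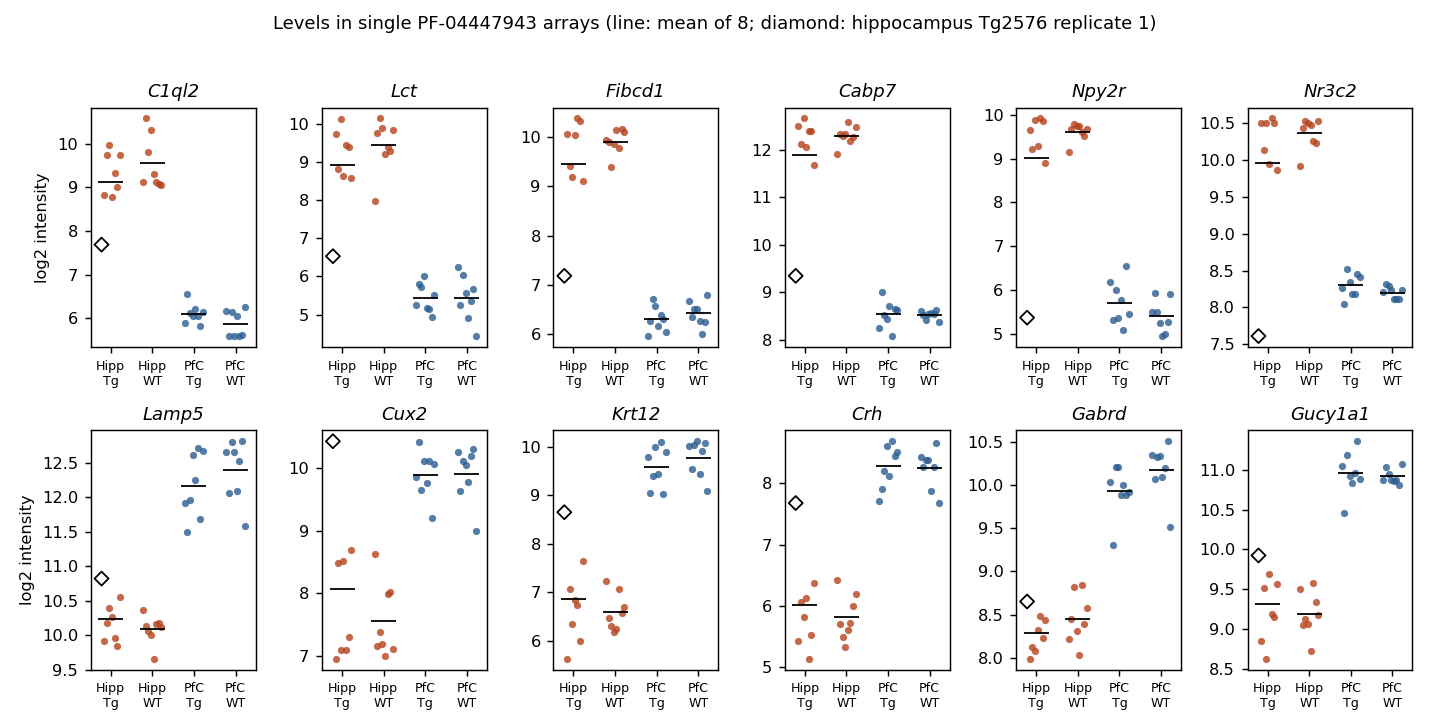
Log2 intensity of 12 genes in the 32 arrays given PF-04447943, hippocampus left and prefrontal cortex right, 8 arrays per group of genotype (Tg, Tg2576; WT, wild type), with a line at each mean; each panel has its own axis, which does not start at 0. C1ql2, Lct, Fibcd1, Cabp7, Npy2r and Nr3c2 are higher in hippocampus and the 6 genes of the lower row are lower, and the diamond, the library labelled hippocampus Tg2576 replicate 1, lies below the other 15 hippocampal arrays in the upper row.

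The cortical lists went the other way, with exceptions. Of 18 tested transcription factors of cortical layers, 10 were lower in hippocampus and 5 higher, with a median of -0.49 (-0.52 without the library at odds with its label). Foxp2, a forkhead factor of deep layers, lay at 5.25, 6.16 and 8.37 in hippocampus, against 7.80, 8.43 and 9.57 in cortex, a difference of -2.18 ± 0.23. Cux2 lay at 6.96, 7.34 and 10.43 in hippocampus, against 9.0, 10.06 and 10.41 in cortex. The highest hippocampal value, that of the library at odds with its label, was above all cortical values. Cux2 differed by -2.09 ± 0.24, by -2.26 without that library and by -1.15 over the mean of its probe sets. Mef2c, a MADS-box factor, differed by -2.09 ± 0.17 and Tbr1, a T-box factor of early-born cortical neurons, by -1.56 ± 0.14. The 5 that were higher included Bcl11b (also CTIP2), known for deep-layer neurons and expressed in hippocampus as well, at 1.09; it was picked after its value was seen.

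Effector genes of cortical layers were mixed: 9 of 17 were lower and 5 higher, with a median of -0.39, and 3 passed 1 log2 unit in each direction. Rspo1, a secreted activator of Wnt signalling, had levels of 4.82, 5.61 and 7.29 in hippocampus, against 6.32, 8.19 and 9.29 in cortex, and differed by -2.51 ± 0.28 (adjusted p = 5.78e-09). Crym, a crystallin that binds thyroid hormone, was higher in hippocampus by 1.64 ± 0.19 (1.76 without the library at odds with its label). Nnat, above, belongs to the same list and was also higher.

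Among 19 tested genes of inhibitory neurons 10 were lower in hippocampus and 1 was higher, where 29.5% and 26.1% of all genes were. The median was -0.20. Crh, the corticotropin-releasing hormone, lay at 5.14, 5.77 and 7.68 in hippocampus, against 7.67, 8.32 and 8.69 in cortex. The ranges overlapped through the library at odds with its label only, and the difference was -2.34 ± 0.17. Vip, vasoactive intestinal peptide, differed by -1.62 ± 0.15 and Tac2, neurokinin B, by -1.15 ± 0.15. The member that was higher was Nos1, the neuronal nitric oxide synthase, by 1.04 ± 0.10, which fell below 1 log2 unit, to 0.99, without that library.

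Genes of striatal projection neurons were lower in hippocampus, 10 of 12 tested and 5 by at least 1 log2 unit, with a median of -0.88 (-0.94 without the library at odds with its label). The cortical arrays themselves were far apart in this list. Its mean lay between 9.30 and 10.5 in 7 of the 16 cortical arrays, 4 of Tg2576 and 3 of wild-type mice, and between 7.92 and 8.24 in the other 9, against 7.76 to 8.30 in the hippocampal arrays. Drd1, the D1 dopamine receptor, ran from 7.10 through 7.36 to 8.76 in hippocampus, against 7.30, 8.38 and 10.77 in cortex. Its difference of -1.18 ± 0.30 (adjusted p = 0.00111) was -0.073 with the mean of the list as a covariate, an alternative added after the data were seen. Tac1, the substance P precursor, and Rarb, a retinoic acid receptor, differed by -1.71 ± 0.32 and -1.38 ± 0.21, and by -0.55 and -0.61 with that covariate. Tac1 was also -0.84 over the mean of its probe sets. Gpr6, an orphan receptor of striatal neurons, differed by -1.53 ± 0.53 and by 0.38, the opposite sign, with that covariate. Drd1, Tac1, Rarb and Gpr6 are members of the list, so the covariate holds their own levels and part of their change is built in. With the covariate 192 genes were higher and 234 lower by at least 1 log2 unit. The list mean itself differed between regions, with medians of 7.93 in hippocampus and 8.19 in cortex. Adjusting for it, here and below, therefore also takes out regional difference of any source. A change with this covariate cannot be assigned to striatal tissue. What share of the cortical samples was striatal tissue was not tested.

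Choroid plexus varied among the hippocampal arrays in the same way. Of 11 listed genes with a probe set, 6 passed the filter and were tested. Of these 6, 4 were higher in hippocampus, 3 of them by at least 1 log2 unit, with a median of 1.52. The mean of the list was 10.7 and 10.8 in 2 hippocampal arrays and between 6.80 and 8.14 in the other 14, against 5.69 to 7.06 in cortex. Ttr, the thyroid hormone carrier transthyretin, ran from 7.91 through 12.04 to 15.06 in hippocampus, against 5.32, 7.55 and 9.85 in cortex. It was higher by 3.98 ± 0.56 (adjusted p = 4.52e-07), with overlapping ranges, and by 1.01 with the mean of the list as a covariate. Sostdc1, a secreted antagonist of bone morphogenetic proteins, was higher by 2.36 ± 0.34, and by 0.38 with the covariate. Both genes are members of the list, so the covariate holds their own levels and part of their change is built in. With that covariate, also added after the data were seen, 4301 genes passed the threshold in place of 7192. By at least 1 log2 unit 122 were higher and 124 lower. The list mean itself differed between regions, at 6.80 to 10.84 in hippocampus and 5.69 to 7.06 in cortex. Adjusting for it therefore also takes out regional difference of any source, and the drop in calls cannot be assigned to this tissue. The part of this tissue in other differences was not tested.

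**Figure D3:**
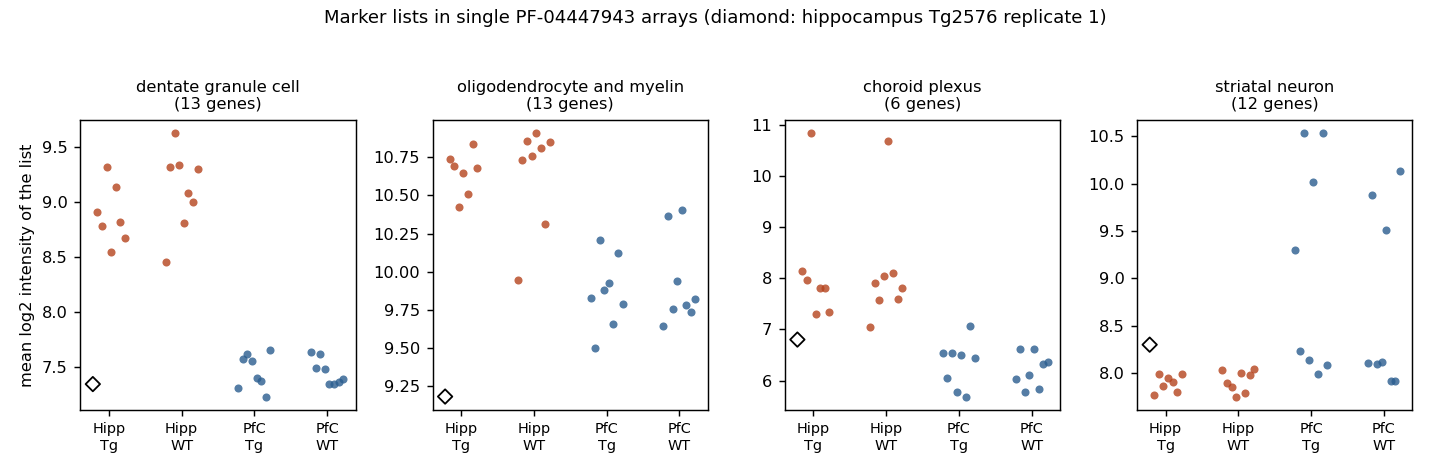
Mean log2 intensity of 4 marker lists in each array given PF-04447943, hippocampus left and prefrontal cortex right, 8 arrays per group of genotype; the axes do not start at 0. Dentate granule cell genes separate the regions except for the diamond, the library labelled hippocampus Tg2576 replicate 1, 7 of the 16 cortical arrays lie above 9 in striatal genes, and 2 of the 16 hippocampal arrays lie above 9 in choroid plexus genes.

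Markers of other neighbouring tissue were split. All 5 genes of ependymal cells, which line the ventricles, were higher in hippocampus, with a median of 0.86, led by Tmem212 at 1.39 ± 0.17 and Ccdc153 at 1.20 ± 0.14. Of 11 meningeal genes 3 were higher and 8 did not pass, with Dcn, the matrix proteoglycan decorin, at 1.76 ± 0.29 (0.94 over the mean of its probe sets). The 4 tested genes of thalamic neurons did not move together. Prkcd, protein kinase C delta, was higher by 2.06 ± 0.18 (1.18 over the mean of its probe sets). Rora, a retinoid-related orphan receptor, and Ramp3, an accessory protein of calcitonin-family receptors, were lower, at -1.22 ± 0.14 and -1.20 ± 0.13. Another probe set of Rora had the opposite sign, at 0.052, and the mean of its probe sets gave -0.72.

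Among glial genes, all 13 tested genes of oligodendrocytes and myelin were higher in hippocampus, with a median of 0.70 and of 0.79 without the library at odds with its label, which was the lowest of the 32 arrays in this list. Gjc3, a gap junction protein of myelinating glia, was the 1 gene past 1 log2 unit, with 6.14, 7.01 and 7.44 in hippocampus, against 5.50, 5.87 and 6.46 in cortex, and a difference of 1.06 ± 0.10. In the related list of oligodendrocyte precursors 5 of 7 were higher. Sox10, the factor that specifies the lineage, did not overlap between regions and was higher by 0.95 ± 0.077, and Olig2, a basic helix-loop-helix factor of the lineage, was higher by 0.44 ± 0.068.

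Of 14 astrocyte genes 5 were higher and 3 lower, with a median of 0.13. With the library at odds with its label left out, 7 were higher and 3 lower, where 27.25% and 30.25% of all genes were. The median was again 0.13. Gfap was the 1 gene of its list past 1 log2 unit, with that library and without it. Gfap lay at 11.38, 11.84 and 12.13 in hippocampus, against 8.41, 9.48 and 10.82 in cortex (adjusted p = 1.35e-13). Microglial genes were close to level, with 2 of 12 higher, 2 lower and a median of 0.03. Selplg, a ligand of selectins, was higher by 0.21 ± 0.044 and Aif1, which encodes IBA1, was lower, at -0.17 ± 0.066. Of 10 endothelial genes 8 were lower in hippocampus, with a median of -0.29, among them Slc2a1, the glucose transporter GLUT1, at -0.45 ± 0.058, and Tek, the angiopoietin receptor TIE2, at -0.42 ± 0.082. Of 8 genes of mural cells, the pericytes and smooth muscle of vessels, 3 were lower and 1 was higher: Higd1b, a pericyte marker, was at -0.44 ± 0.078, and Acta2, smooth muscle actin, at 0.38 ± 0.11.

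**Figure D4:**
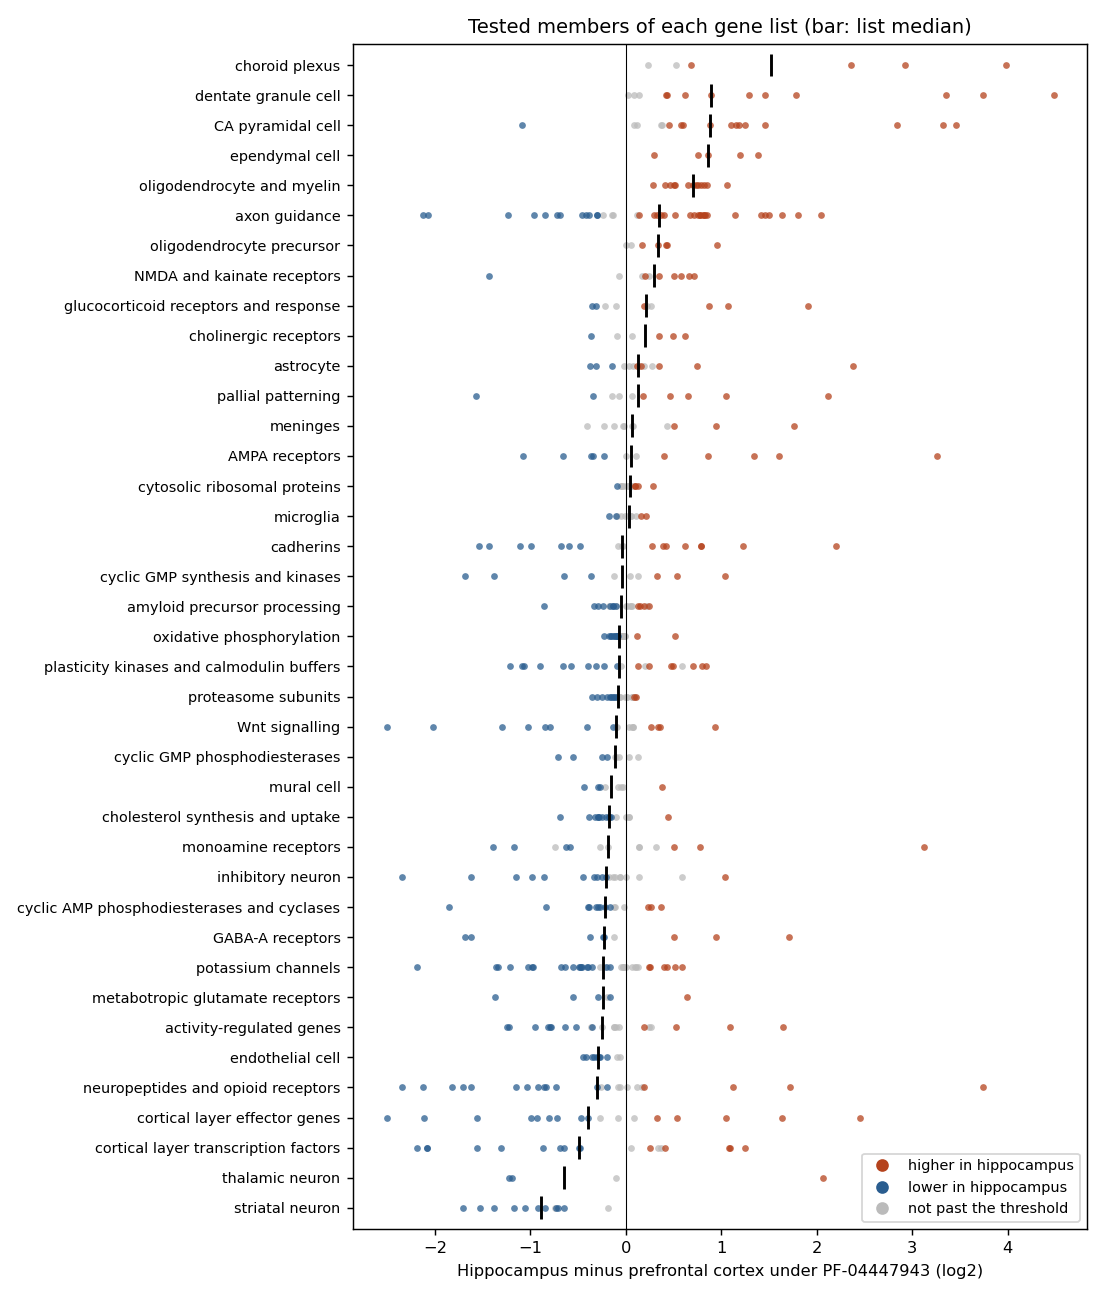
Each point is a tested gene of one of 39 lists, placed by its difference, hippocampus minus prefrontal cortex under PF-04447943 (log2), and coloured by whether it passed an adjusted p of 0.05 and in which direction; the bar is the median of the list. Lists are ordered by that median, from choroid plexus at 1.52 and dentate granule cells at 0.89 to striatal neurons at -0.88.

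The target of the drug was not past the threshold between regions under PF-04447943. Pde9a had levels of 6.88, 7.59 and 8.01 in hippocampus, against 7.32, 7.62 and 7.72 in cortex. Its difference under PF-04447943 was -0.071 ± 0.091 (adjusted p = 0.525). In the vehicle arrays it was larger, at -0.23. The hippocampal arrays spread more widely than the cortical ones and enclosed them. The sign of the small difference under PF-04447943 depended on the fit: it was 0.012 with the striatal and 0.23 with the choroid plexus list as a covariate.

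Of 9 tested phosphodiesterases that hydrolyse cyclic GMP, 4 were lower in hippocampus and none was higher, where 29.5% and 26.1% of all genes were. The median was -0.11. Pde10a, a dual-specificity enzyme abundant in striatal neurons, was at -0.71 ± 0.25 (adjusted p = 0.0172) and Pde1b, a calmodulin-dependent enzyme, at -0.55 ± 0.15. Both differences were of the opposite sign, 0.087 and 0.0097, with the striatal list as a covariate. Pde10a is itself a member of that list, so the covariate holds its own level and part of its change is built in. The list mean also differed between regions, so neither change can be assigned to striatal tissue. Among genes of cyclic GMP synthesis and kinases, single genes differed by more, in both directions. Gucy1a1, a subunit of the guanylate cyclase that nitric oxide activates, lay at 8.63, 9.18 and 9.93 in hippocampus, against 10.45, 10.90 and 11.36 in cortex. The groups did not overlap, and the difference was -1.68 ± 0.10 (adjusted p = 1.01e-14). Prkg2, the membrane-bound cyclic GMP-dependent kinase, was lower by a similar amount, at -1.39 ± 0.17, whereas Nos1 was higher, as given above. Of the 10 tested genes of cyclic GMP synthesis and kinases, 3 were higher and 4 lower, with a median of -0.04.

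In the cyclic AMP branch 9 of 15 tested phosphodiesterases and cyclases were lower in hippocampus and 3 higher, with a median of -0.22. Pde7b, a phosphodiesterase specific for cyclic AMP, lay at 8.47, 8.86 and 9.24 in hippocampus, against 9.44, 10.74 and 11.34 in cortex. It differed by -1.85 ± 0.12 (adjusted p = 2.99e-14), and by -1.86 without the library at odds with its label.

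Glutamate receptors were described by family. Of 12 AMPA receptor subunits and auxiliary proteins, 5 were higher in hippocampus and 5 lower, with a median of 0.06. Gria1, the GluA1 subunit, lay at 10.92, 12.44 and 12.64 in hippocampus, against 10.81, 10.95 and 11.19 in cortex. It was higher by 1.34 ± 0.10 (adjusted p = 2.60e-12). Of the auxiliary proteins, Shisa6, above, and Cnih2, a cornichon, were higher, the second by 1.61 ± 0.10, and Cacng3, a transmembrane AMPA receptor regulatory protein, was lower, at -1.07 ± 0.061. Of 10 NMDA and kainate receptor subunits 6 were higher and 1 lower, with a median of 0.29, and 8 were higher and 1 lower without the library at odds with its label. The lower one was Grik3, the kainate receptor subunit GluK3, at -1.43 ± 0.19 (-0.86 over the mean of its probe sets). Of 6 metabotropic glutamate receptors 4 were lower, with Grm8, a presynaptic group III receptor, at -1.37 ± 0.19, and 1 was higher.

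Of 9 GABA-A receptor subunits 3 were higher and 5 lower. Gabra5, the alpha 5 subunit of extrasynaptic receptors on pyramidal cells, lay at 8.59, 10.57 and 11.10 in hippocampus, against 8.37, 8.76 and 8.94 in cortex. Its difference was 1.71 ± 0.14, and 1.83 without the library at odds with its label, whose level lay within the cortical range. Gabrd, the delta subunit, lay at 7.99, 8.36 and 8.84 in hippocampus, against 9.31, 10.08 and 10.51 in cortex. It was lower, at -1.68 ± 0.094 (adjusted p = 2.73e-15), without overlap. The mean of its probe sets gave -0.89, but the other probe set was dim, at a mean level of 5.35, under the level for testing. Gabra3, the alpha 3 subunit, was at -1.63 ± 0.17.

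Among receptors for modulators, Npy2r, a receptor for neuropeptide Y, had the largest difference. It lay at 5.37, 9.66 and 9.91 in hippocampus, against 4.95, 5.47 and 6.54 in cortex. The difference was 3.75 ± 0.28 (adjusted p = 9.17e-13), and 4.01 without the library at odds with its label, which had the lowest hippocampal value. Htr4, a serotonin receptor coupled to cyclic AMP, was higher by 3.13 ± 0.24, while Adra1b, an alpha 1 adrenergic receptor, was lower, at -1.39 ± 0.14. Over all, 13 of 23 neuropeptides and their receptors were lower and 4 higher, and 4 of 13 monoamine receptors were lower and 3 higher. Among all genes 29.5% were lower and 26.1% higher. Cckbr, the brain receptor for cholecystokinin, was at -2.13 ± 0.16 and Adcyap1, the peptide PACAP, at -1.82 ± 0.18. Of 6 cholinergic genes 3 were higher, with Chrna7, the alpha 7 nicotinic receptor, at 0.62 ± 0.11 and Ache, acetylcholinesterase, at 0.49 ± 0.069, and 1 was lower.

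Potassium channel genes were lower more often than higher: 19 of 36 were lower in hippocampus, 5 of them by at least 1 log2 unit, and 6 were higher, none by that much. The median was -0.23. Kcnh5 lay at 5.12, 5.46 and 6.64 in hippocampus, against 6.68, 7.73 and 8.33 in cortex, and the highest hippocampal value was that of the library at odds with its label. The related subunits Kcnv1, Kcnh7 and Kcnf1 followed, Kcnv1 at -1.36 ± 0.087, Kcnh7 at -1.34 ± 0.089 and Kcnf1 at -1.21 ± 0.13.

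Of 20 genes of calcium and calmodulin signalling, 7 were higher and 10 lower. Camkk2, the kinase that activates calmodulin-dependent kinases I and IV, lay at 10.15, 10.40 and 10.67 in hippocampus, against 11.09, 11.64 and 11.96 in cortex. It was lower without overlap, at -1.22 ± 0.069 (adjusted p = 4.37e-15). Camk4, one of its substrates, was lower too, at -1.07 ± 0.069, with another, dimmer probe set at 0.07.

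Of 21 genes that neuronal activity induces, 9 were lower and 4 higher, where 29.5% and 26.1% of all genes were, and the median was -0.25. By at least 1 log2 unit 2 were higher and 2 lower. Dusp1, a phosphatase of MAP kinases, lay at 8.33, 8.83 and 9.88 in hippocampus, against 9.61, 10.12 and 10.88 in cortex, and differed by -1.24 ± 0.15. Egr2, a zinc finger factor, differed by -1.23 ± 0.26 (adjusted p = 2.18e-04), and by -0.78 with the striatal list as a covariate. Nr4a3, an orphan nuclear receptor, was higher by 1.65 ± 0.20 (0.60 over the mean of its probe sets). Jun, a subunit of AP-1, was higher without overlap, by 1.10 ± 0.081.

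Of 10 genes of glucocorticoid signalling 4 were higher and 2 lower, where 26.1% and 29.5% of all genes were. Nr3c2, the mineralocorticoid receptor, lay at 7.61, 10.46 and 10.57 in hippocampus, against 8.05, 8.23 and 8.52 in cortex. The lowest hippocampal value, below all cortical ones, was that of the library at odds with its label, and the next was 9.86. Nr3c2 was higher by 1.91 ± 0.17 (adjusted p = 7.29e-11), and by 2.08 without it. Fkbp5, a cochaperone of steroid receptors that glucocorticoids induce, was higher by 1.07 ± 0.077, and by 0.59 over the mean of its probe sets.

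Guidance and adhesion genes, which wire circuits in development and persist in adult neurons, formed the largest list with changes both ways: 22 of 38 axon guidance genes were higher and 12 lower, with a median of 0.35. Epha6, an ephrin receptor, was higher by 2.04 ± 0.16 and Slit1, a secreted repellent, by 1.81 ± 0.11. Sema3a, a secreted semaphorin, lay at 6.41, 6.80 and 8.70 in hippocampus, against 8.68, 9.12 and 9.41 in cortex, a difference of -2.12 ± 0.14. Efna5, a ligand of Eph receptors, was at -2.08 ± 0.22 (-1.29 over the mean of its probe sets). Of 18 cadherins and protocadherins 8 were higher, led by Pcdh20 at 2.20 ± 0.23 and Pcdh19 at 1.23 ± 0.09. The 7 that were lower were led by Cdh6 at -1.54 ± 0.16 and Pcdh7 at -1.43 ± 0.16 (-0.91 over the mean of its probe sets). Of 18 genes of Wnt signalling 8 were lower and 4 higher, where 29.5% and 26.1% of all genes were. Dkkl1, a dickkopf-like secreted protein, was at -2.02 ± 0.16, and the ligands Wnt9a and Wnt10a were at -1.29 ± 0.13 and -1.02 ± 0.11.

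Of 20 tested genes that handle the amyloid precursor protein, 4 were higher and 8 lower, a share close to the 55.5% over all genes. None was past 1 log2 unit, where 1.29% of all genes were higher and 1.50% lower by that much. Mme, the amyloid-degrading protease neprilysin, was at -0.86 ± 0.16 and Aph1a, a subunit of gamma-secretase, at -0.34 ± 0.059, while another probe set of Aph1a had the other sign, at 0.058. The brightest App probe set averaged 13.97 ± 0.037 in hippocampus of Tg2576 and 13.95 ± 0.038 of wild-type mice, against 13.91 ± 0.071 and 13.91 ± 0.070 in cortex in the same order (SD, n = 8 each). The genotypes lay within 1 SD of each other, so this probe set offers no check of the genotype labels, and its regional difference was 0.057 ± 0.025 (adjusted p = 0.0584). A second App probe set had the opposite sign, at -0.034.

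Of 17 genes of cholesterol synthesis and uptake 11 were lower and 1 higher, with a median of -0.18, Stard4, a sterol transporter, at -0.69 ± 0.085 and Dhcr7, which makes cholesterol from its last precursor, at 0.45 ± 0.058. Of 16 ribosomal protein genes 4 were higher and 1 lower, with Rps6 at 0.29 ± 0.046 and Rpl22 at 0.13 ± 0.033. Of 22 proteasome subunits 9 were lower and 2 higher, with the ATPases Psmc1 at -0.36 ± 0.039 and Psmc4 at -0.31 ± 0.083. Of 21 genes of oxidative phosphorylation 10 were lower and 2 higher. The share of genes called in either direction in these last 2 lists was close to the 55.5% over all genes. The complex I gene Ndufa10 was higher, at 11.92, 12.03 and 12.09 in hippocampus, against 11.31, 11.51 and 11.62 in cortex, a small difference of 0.51 ± 0.027 but one with no overlap (adjusted p = 1.16e-15). Its neighbour in the complex, Ndufa9, was lower without overlap, at -0.23 ± 0.029.

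Whether the regions differed by another amount in Tg2576 than in wild-type mice was tested as an interaction. No gene passed an adjusted p of 0.05 in limma, with all arrays or without the library at odds with its label, and an unadjusted p under 0.05 was found for 408 genes and for 326 without that library, where 647.45 of 12949 would be expected by chance. The smallest p was that of Sirt1, a deacetylase that depends on NAD. Sirt1 differed between regions by -0.39 in Tg2576 mice and by -0.038 in wild-type mice, an interaction of -0.35 ± 0.082 (adjusted p = 0.998). It was followed by Sp3, a zinc finger factor, at -0.25, Actr6, an actin-related protein of chromatin remodelling, at -0.25, Zcchc4, an RNA methyltransferase, at -0.34, and Usp16, a deubiquitinase of histone H2A, at -0.21.

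Counted in each genotype alone, 130 genes were higher and 171 lower by at least 1 log2 unit in Tg2576 mice, and 212 and 229 in wild-type mice. Without the library at odds with its label the counts for Tg2576 mice were 166 and 216. In Tg2576 mice Dsp differed by 3.81, against 5.16 in wild-type mice, and without that library the value in Tg2576 mice was 4.35. C1ql2 differed by 3.03 in Tg2576 and 3.67 in wild-type mice. Crym, at 1.23 against 2.05, and Nos1, at 0.99 against 1.09, gave further pairs, and no interaction of these genes passed the threshold. The Tg2576 values of C1ql2, Crym and Nos1 include the library at odds with its label. Its level of Crym was 9.57, against a mean of 11.28 in its group of 8, so part of that gap comes from 1 array.

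The vehicle arrays, which share no sample with the arrays given PF-04447943, gave similar regional differences. There 159 genes were higher in hippocampus and 226 lower by at least 1 log2 unit, against 167 and 194 under PF-04447943. Of these, 332 passed under both, 148 higher and 184 lower, which is 92.0% of the calls under PF-04447943 and 86.2% of those under vehicle, and 0 had opposite signs. All 361 genes called under PF-04447943 passed the adjusted p in the same direction under vehicle. With the library at odds with its label left out, 351 genes passed 1 log2 unit under both. That is 87.1% of the 403 calls then made under PF-04447943 and 91.2% of those under vehicle. Dsp differed by 4.49 under PF-04447943 and 4.51 under vehicle, C1ql2 by 3.35 and 3.67, Krt12 by -2.94 and -2.89, Lamp5 by -2.12 and -2.24, and Gucy1a1 by -1.68 and -1.80. Ttr had values of 3.98 and 5.05, with the wide spread of choroid plexus genes described above.

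**Figure D5:**
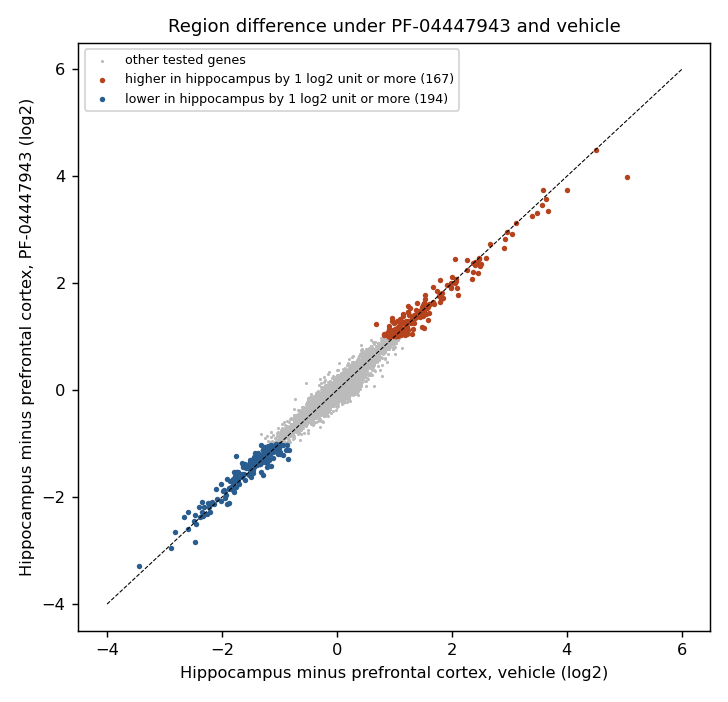
Each point is 1 of the 12949 genes tested, placed by its difference between hippocampus and prefrontal cortex (log2) in the 32 vehicle arrays (horizontal axis) and in the 32 arrays given PF-04447943 (vertical axis); the dashed line marks equal differences. The 167 genes higher and the 194 lower by at least 1 log2 unit under PF-04447943 lie close to that line.

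The interaction of region and drug, fitted over all 64 arrays, had no gene past an adjusted p of 0.05 in limma, while 1248 genes had an unadjusted p under 0.05, and 1431 without the library at odds with its label, where 647.45 of 12949 would be expected by chance. With array weights 105 genes passed, with no filter on low values 49 and with median centring 5. The smallest p belonged to a probe set annotated to Mir142, the gene of a microRNA of blood cells and microglia, and to Insyn2a, a component of inhibitory synapses. Mir142 averaged 6.55 ± 0.15 and 6.42 ± 0.14 in hippocampus of Tg2576 and wild-type mice under PF-04447943, against 6.76 ± 0.18 and 6.74 ± 0.10 under vehicle (SD, n = 8 each). Its regional difference was -0.02 under PF-04447943 and 0.29 under vehicle, an interaction of -0.31 ± 0.065 (adjusted p = 0.0867). The 2 highest of the 16 hippocampal levels of Mir142 under PF-04447943, 6.90 in Tg2576 replicate 4 and 6.71 in wild-type replicate 5, came from the 2 arrays high in choroid plexus genes, a part that was not tested beyond the covariate, with which the interaction was -0.30 (adjusted p = 0.13). It passed the threshold with array weights (adjusted p = 0.00468), with no filter on low values and with any 1 of 7 single arrays left out. Insyn2a differed between regions by 0.014 under PF-04447943 and 0.38 under vehicle, an interaction of -0.37 ± 0.077 (adjusted p = 0.0867), and another of its probe sets gave a regional difference of -0.27. Wbscr25 had an interaction of -0.40, Ythdc1, a reader of methylated adenosine in RNA, of 0.19, and Lelp1 of -0.26, and the other probe set of Ythdc1 above the filter had a regional difference of the other sign, 0.068.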

How the data were processed

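RNA of 64 samples, 8 per group of region, genotype and treatment, had been hybridised to Affymetrix mouse arrays with 45101 probe sets. The deposited values were RMA intensity values, per the submitters' processing notes. With a lowest value of 5.87 and a highest of 34088.93 their scale is linear, and log2 was taken. Which RMA program and version was used, and whether all arrays were normalized together, is not stated. Arrays have no read depth, so their number limits the precision. Of the probe sets 34945 had 1 gene symbol in the platform annotation, updated through mouse RefSeq genes, 932 had several and 9160 had none there. Each of 18193 genes was represented by its brightest probe set, and genes whose mean over the 32 arrays lay below the 40th percentile, log2 5.92, were left out.

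The limma package, version 3.58.1, run under R 4.3.3 (data.table of version 1.17.8), gave the differences, with 4 groups under PF-04447943 in 1 fit, region averaged over genotype, and all 8 groups in 1 fit for region by drug. Tests were two-sided, adjusted after Benjamini and Hochberg over all 12949 genes, and the fits were checked on simulated data. Named genes were the 10 largest differences in each direction among genes whose arrays did not overlap, up to 4 members of each of 39 lists with the largest differences past both thresholds or else the largest 2, Pde9a and App, and the 5 smallest p of each interaction; other genes were picked after their values were seen. The members and lists were chosen with earlier results of these data known. The labels do not say that a replicate number marks a mouse, so arrays were not paired in the main fit, and a paired fit is given below. Other filters, probe set rules, scalings, covariates and arrays left out were tried. Figures used Python 3.11.15, pandas 2.3.3 and matplotlib 3.10.9.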

Additional observations from a re-analysis of the deposited data

Results flagged for a closer look

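In each group of 8 arrays given PF-04447943, the highest and lowest array were compared with the rest for the named genes and the list means. The number after each item is the gap from that array to its nearest neighbour as a share of the range of the group, and it was looked at where it was over 0.526. Among 652 groups examined, 83 were past this limit, 12.7%, where chance alone would give about 5%. Of these 40 fell on the library labelled hippocampus Tg2576 replicate 1, which is described in the report. Causes were not tested.

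Replicate 1 of hippocampus of Tg2576 mice was set apart as the lowest array in Acta2 (0.530), Cabp7 (0.702), Chrna7 (0.580), Crym (0.725), Dsp (0.650), Epha6 (0.585), Fibcd1 (0.603), Gabra5 (0.585), Gpr161 (0.669), Gria1 (0.591), Htr4 (0.745), Lct (0.572), Npy2r (0.777), Nr3c2 (0.761), Nr4a3 (0.660), Pcdh19 (0.649), Pcdh20 (0.714), Prox1 (0.653), Shisa6 (0.691), Slit1 (0.638), Spink8 (0.659), Tanc1 (0.622) and Zbtb20 (0.703). The list means of AMPA receptors (0.566), CA pyramidal cell (0.616), cholinergic receptors (0.662), dentate granule cell (0.606), oligodendrocyte and myelin (0.750), oligodendrocyte precursor (0.543) and pallial patterning (0.642) were lowest in replicate 1 of hippocampus of Tg2576 mice. Replicate 1 of hippocampus of Tg2576 mice was set apart as the highest array in Adra1b (0.691), Cckbr (0.618), Dkkl1 (0.725), Drd1 (0.622), Exph5 (0.572), Kcnh5 (0.646), Pcdh7 (0.684), Stard4 (0.576) and Tac2 (0.611). For striatal neuron (0.577), the list mean was highest in replicate 1 of hippocampus of Tg2576 mice. Replicate 4 of hippocampus of Tg2576 mice was set apart as the highest array in Kl (0.693), Mir142 (0.726) and Sostdc1 (0.653). In hippocampus of Tg2576 mice, replicate 4 had the highest list mean of choroid plexus (0.669). The list mean of oxidative phosphorylation (0.548) was highest in replicate 5 of hippocampus of Tg2576 mice.

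Replicate 1 of hippocampus of wild-type mice was set apart as the lowest array in Lct (0.569) and Npy2r (0.584). Replicate 1 of hippocampus of wild-type mice was set apart as the highest array in Gpr6 (0.526). For neuropeptides and opioid receptors (0.576), the list mean was highest in replicate 1 of hippocampus of wild-type mice. Replicate 2 of hippocampus of wild-type mice was set apart as the highest array in Rps6 (0.563). Replicate 3 of hippocampus of wild-type mice was set apart as the highest array in Acta2 (0.562). In hippocampus of wild-type mice, replicate 5 had the lowest list mean of cadherins (0.553). Replicate 5 of hippocampus of wild-type mice was set apart as the highest array in Kl (0.697), Mir142 (0.546), Rpl22 (0.570) and Sostdc1 (0.782). The list mean of choroid plexus (0.709) was highest in replicate 5 of hippocampus of wild-type mice. For oligodendrocyte precursor (0.725), the list mean was highest in replicate 8 of hippocampus of wild-type mice.

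Replicate 1 of prefrontal cortex of Tg2576 mice was set apart as the highest array in Insyn2a (0.595). Replicate 2 of prefrontal cortex of Tg2576 mice was set apart as the lowest array in Gabrd (0.636). Replicate 2 of prefrontal cortex of Tg2576 mice was set apart as the highest array in Olig2 (0.567). Replicate 5 of prefrontal cortex of Tg2576 mice was set apart as the lowest array in Shisa6 (0.634). Replicate 6 of prefrontal cortex of Tg2576 mice was set apart as the lowest array in Pcdh19 (0.579). In prefrontal cortex of Tg2576 mice, replicate 7 had the lowest list mean of glucocorticoid receptors and response (0.536). Replicate 7 of prefrontal cortex of Tg2576 mice was set apart as the highest array in Zbtb20 (0.602).

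Replicate 5 of prefrontal cortex of wild-type mice was set apart as the lowest array in Ndufa10 (0.610). Replicate 7 of prefrontal cortex of wild-type mice was set apart as the lowest array in Ache (0.528). Replicate 8 of prefrontal cortex of wild-type mice was set apart as the lowest array in Cacng3 (0.648), Cbln2 (0.602), Exph5 (0.555), Gabrd (0.560), Kcnh7 (0.529), Kcnv1 (0.685), Mef2c (0.573), Psmc1 (0.762), Sirt1 (0.534), Tmem196 (0.534) and Vip (0.568). The list mean of potassium channels (0.593) was lowest in replicate 8 of prefrontal cortex of wild-type mice. Replicate 8 of prefrontal cortex of wild-type mice was set apart as the highest array in Cpne7 (0.550), Htr4 (0.574), Insyn2a (0.558) and Meis2 (0.538).

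With all arrays, no gene passed the limma test of a different regional difference between genotypes or between treatments. The counts under other settings are given below.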

How the results depend on the processing

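A gene below the filter of an alternative had no value there and was not counted for it. Of 90 named genes past 1 log2 unit, 86 kept their direction and an adjusted p under 0.05 under every alternative that tested them. Drd1 lost that p with the striatal and Ttr and Sostdc1 with the choroid plexus covariate, and Gpr6 changed sign (0.38) with the striatal one. Each of these genes is a member of the list that was its covariate. The value of 29 of the 90 moved by over 1.5 times under some alternative: 14 over the mean of probe sets and 5 with the striatal covariate, with values given beside the genes, Gpr6 with RNA quality, and 17 with the choroid plexus covariate. With the last, Ttr and Sostdc1 had the values given above, Kl, a member of that list like them, was 1.40, Nr4a3 1.04, Adcyap1 -1.20, Cdh6 -0.90, Cux2 -1.23, Dusp1 -0.80, Efna5 -1.21, Gabra3 -0.92, Grik3 -0.57, Grm8 -0.69, Kcnf1 -0.74, Pcdh11x -1.12, Pcdh7 -0.93, Prkg2 -0.80 and Rora -0.71. The mean of probe sets takes in those below the filter. For Gabrd, Gpr161, Dcn, Tac1 and Efna5 the only other probe set was below it, so their smaller means do not reflect a second detected probe set. With every probe set tested, 12579 differences passed (5810 higher, 6769 lower), 611 of them by 1 log2 unit (289 and 322), since more features were tested. The choroid plexus covariate, which itself differed between regions, left 4301 (2234 and 2067), with 124 lower by 1 log2 unit. Leaving out each array in turn gave 6922 to 7452 calls and 348 to 403 by 1 log2 unit. With genotype and replicate number as a replicate block, a paired fit, 6834 passed (3226 and 3608), 361 by 1 log2 unit and 0 in either interaction. Deviations of same-numbered arrays of the 2 regions from their group means correlated from -0.256 to 0.334 over 16 pairs under PF-04447943, 8 of them over 0.1, and from -0.014 to 0.538 over 16 pairs under vehicle, 12 of them over 0.1. The best match was the array of the same number in 6 of 16 and 12 of 16 pairs, a hint of pairing from the data and not from the design. The 6 under PF-04447943 were all of wild-type mice. Region by genotype had 0 calls under every alternative. Region by drug, with 0 calls, had 49 with no filter (2 positive, 47 negative), 105 with array weights (18, 87), 5 with median centring (0, 5), 2 with signal range as a covariate (1, 1), 2 at an adjusted p under 0.10 (0, 2), and 0 to 6 with an array left out (0 to 1 positive, 0 to 5 negative): 6 without hippocampus Tg2576 PF-04447943 replicate 4, 5 without replicate 2 of that group, 2 without hippocampus wild-type vehicle replicate 5, and 1 each without hippocampus wild-type PF-04447943 replicate 5, hippocampus Tg2576 vehicle replicates 5 and 8, and prefrontal cortex wild-type PF-04447943 replicate 7. The causes were not tested.

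Small regional differences changed sign. App was -0.013 over the mean of probe sets, and Insyn2a was -0.091 there, -0.0033 with RNA quality, -0.00096 with signal range and -0.061 with choroid plexus as a covariate. With the striatal covariate Pde10a, a member of that list, was 0.087, Pde1b 0.0097, Pde9a 0.012 and Mir142 0.017. With the choroid plexus one Pde9a was 0.23. With an array left out, Insyn2a ran from -0.0048 to 0.045 and Mir142 from -0.045 to 0.00035. The means of both marker lists used as covariates differed between regions, and these covariates were added after seeing the data. Gpr6 was -2.30 with RNA quality as a covariate.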

Other observations

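Some close relatives within the lists had opposite signs. These genes were picked after their values were seen, for that reason. Of the subunits of calmodulin-dependent kinase II, Camk2a and Camk2b were higher in hippocampus, by 0.84 and 0.70, and Camk2d and Camk2g were lower, at -0.90 and -0.66. The neuropilins Nrp1 and Nrp2, receptors of secreted semaphorins, were higher by 1.64 and 1.50, as were their coreceptors Plxna1 and Plxna4, by 0.83 and 0.82, while Plxnd1 was lower, at -1.23, and the ligand Sema3a was among the genes lowest in hippocampus. Of the immediate early genes, Fos, Egr1 and Npas4 were lower, at -0.81, -0.78 and -0.64, and their downstream neurotrophin Bdnf was higher by 0.52 (adjusted p = 0.0069).

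Neuropeptides and their receptors also had both signs. Npy was lower in hippocampus, at -0.86, while Sst, which many of the same cells make, was at -0.066 and did not pass the threshold (adjusted p = 0.379). Nts, neurotensin, was higher by 1.72 and Sstr4, a somatostatin receptor, by 1.12. Under vehicle the differences were 1.85 for Nts, 1.14 for Sstr4, -0.77 for Npy and -0.048 for Sst. All values are limma differences over both genotypes under PF-04447943 unless stated, with the library at odds with its label included. Without it Fos was at -0.93, Camk2d at -0.99, Npy at -0.97 and Bdnf at 0.44.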
